A study of Mus musculus with 72 samples.

Results

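The insulin receptor gene Insr, the receptor substrate genes Irs1 and Irs2, and 5 genes of the insulin-like growth factor (IGF) axis that liver expresses, Igf1, Igfals, Igfbp1, Igfbp2 and Igfbp4, were followed through a mouse liver RNA sequencing series. They were taken by gene symbol from the table of sense-strand gene counts. All 8 were found among its 27846 genes, and all 8 passed the filter on low counts that left 15066 genes for testing. The series asked how the livers of males and females differ in their response to chronic circadian misalignment, a mismatch between internal clocks and the environment. Its 72 livers form 24 groups of 3, from misaligned females, control females, misaligned males and control males at the clock times 0, 4, 8, 12, 16 and 20 h. All mice were wild type C57bl6, 8 to 16 weeks old, in light and dark phases of 12 h each, and both treatments came with a diet that drew 42% of its calories from fat. The labels do not describe the misalignment schedule, and each library is poly(A) RNA of whole liver from 1 of 3 biological replicates.

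Insulin binds its receptor on hepatocytes, and the receptor phosphorylates the IRS adaptor proteins. These recruit a lipid kinase that leads to activation of Akt, and Akt keeps Foxo transcription factors out of the nucleus. The liver makes most of the circulating IGF1 under growth hormone, and much of it travels in a complex of IGF1, an IGF binding protein and the acid-labile subunit encoded by Igfals. Binding proteins hold IGFs back from their receptor, and in liver both Igfbp1 and Irs2 are known as genes that fasting raises and insulin lowers.

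The libraries were of nearly equal size, with 11551524 to 12529963 counts each and a median of 12005221. Scaling factors between libraries ran from 0.836 to 1.17. No library went against its labelled sex by Xist, Eif2s3y and Ddx3y counts, and no pair of libraries held identical counts. Levels are given as CPM, a gene's counts scaled by library size and by these factors. Differences are log2 values from edgeR's quasi-likelihood model with a standard error (SE), and adjusted p-values cover all tested genes with a threshold of 0.05. In whole liver RNA, fewer cells of a type and less RNA per cell cannot be told apart.

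Stretches of sequence are shown for the promoters that hold letters of known clock or insulin elements, for the promoter of the member with the firmest daily rhythm, and for the 2 alternative exons whose use was counted. Promoter windows are the 250 bases before a RefSeq gene start on GRCm38.p6, read 5′ to 3′ on the gene's strand, except that of Igfbp1, which holds the first 245 of them because the annotated gene begins there. Distances run from the RefSeq start back to the first base of the match on the strand shown. Capitals mark CACGTG, an E-box that clock factors can bind, and CAAAACAA, the core of the insulin response element known from the Igfbp1 promoter, on either strand.
Irs1, chr1:82291440-82291689, minus strand: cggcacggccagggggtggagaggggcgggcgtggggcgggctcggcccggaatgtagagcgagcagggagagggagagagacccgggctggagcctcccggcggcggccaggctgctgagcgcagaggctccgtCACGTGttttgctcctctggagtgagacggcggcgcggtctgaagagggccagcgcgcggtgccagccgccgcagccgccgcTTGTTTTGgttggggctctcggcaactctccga
Irs2, chr8:11008930-11009179, minus strand: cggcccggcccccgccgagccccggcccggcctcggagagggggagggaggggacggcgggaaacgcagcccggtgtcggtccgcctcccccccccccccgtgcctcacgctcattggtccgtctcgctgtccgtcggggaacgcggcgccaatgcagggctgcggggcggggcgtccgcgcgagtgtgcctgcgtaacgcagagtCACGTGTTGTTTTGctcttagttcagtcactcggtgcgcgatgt
Igfbp1, chr11:7197537-7197781, plus strand: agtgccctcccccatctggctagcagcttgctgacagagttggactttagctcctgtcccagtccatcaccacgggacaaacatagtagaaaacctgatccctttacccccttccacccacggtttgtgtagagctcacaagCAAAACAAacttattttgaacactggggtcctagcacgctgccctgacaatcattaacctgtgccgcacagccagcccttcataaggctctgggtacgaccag
Igfbp2, chr1:72824230-72824479, plus strand: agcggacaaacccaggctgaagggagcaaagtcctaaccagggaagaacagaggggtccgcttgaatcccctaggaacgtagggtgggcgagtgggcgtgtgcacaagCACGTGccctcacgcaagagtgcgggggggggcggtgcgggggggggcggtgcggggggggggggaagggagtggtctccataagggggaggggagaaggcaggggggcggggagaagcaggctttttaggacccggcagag
Igfbp4, chr11:99040994-99041243, plus strand: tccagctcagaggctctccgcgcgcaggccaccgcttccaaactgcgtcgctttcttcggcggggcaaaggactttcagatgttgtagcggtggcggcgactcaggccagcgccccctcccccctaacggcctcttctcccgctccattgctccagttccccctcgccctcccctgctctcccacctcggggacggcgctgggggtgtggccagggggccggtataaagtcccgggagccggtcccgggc
The alternative exons come from GENCODE vM21 transcripts on GRCm38. Exon 11 of Insr separates receptor isoforms A and B, and exon 5 of Igf1 gives the Eb form of the IGF1 precursor.
Insr exon 11, chr8:3181702-3181737, minus strand: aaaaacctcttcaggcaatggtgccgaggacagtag
Igf1 exon 5, chr10:87915298-87915349, plus strand: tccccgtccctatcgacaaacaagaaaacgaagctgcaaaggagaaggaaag

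The Irs1 window holds the E-box 115 bases and the insulin element letters 33 bases before the start. In the Irs2 window both stand side by side, at 44 and 38 bases. Igfbp1 holds the insulin element letters at 108 bases and Igfbp2 the E-box at 142 bases. Among all 32851 promoter windows of that length, 6.02% hold the E-box and 2.21% the CAAAACAA letters. The other letters searched on both strands, which may overlap each other, were AGGTCA, TTCNNNGAA and GTAAACA. They are found in 14%, 7.02% and 3.17% of all windows. AGGTCA, a nuclear receptor element, was found in the Igf1 window and in 1 of 3 Igfals windows, TTCNNNGAA, the form of a STAT5 site, in 2 of 3 Igfals windows, and GTAAACA, a forkhead site, in 1 of 3 Igfals windows. The Igfbp4 window and the second Igfbp2 window held none of the 5. These matches describe letters only, and no Insr window was examined. The Igf1 window lies inside the gene, between the leader exons 1 and 2, so the bases before exon 1 were not searched. All 3 Igfals windows and the second Igfbp2 window also lie inside the annotated gene spans given below. The bases before the annotated start of Igfals were thus not searched.

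The 8 genes span a wide range of levels. Per kilobase of exon (RPKM, over all 72 livers), Igfbp4 averaged 265, Igfbp2 132, Igfbp1 71.4, Igf1 37.2, Igfals 31.6, Insr 10.3, Irs2 3.22 and Irs1 2.94. The secreted carrier and hormone transcripts thus stood above the receptor, and the receptor above its adaptors. By mean CPM, Igfbp4 lay above 99.2% of the tested genes and Irs2, the lowest member, above 64.4%. Insr lies on chr8:3122061-3279617, Irs1 on chr1:82233101-82291416, Irs2 on chr8:10984681-11008458, Igf1 on chr10:87858265-87937042, Igfals on chr17:24865997-24882010, Igfbp1 on chr11:7197782-7202546, Igfbp2 on chr1:72824503-72852474 and Igfbp4 on chr11:99041244-99054392 (GRCm38).

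**Figure D1:**
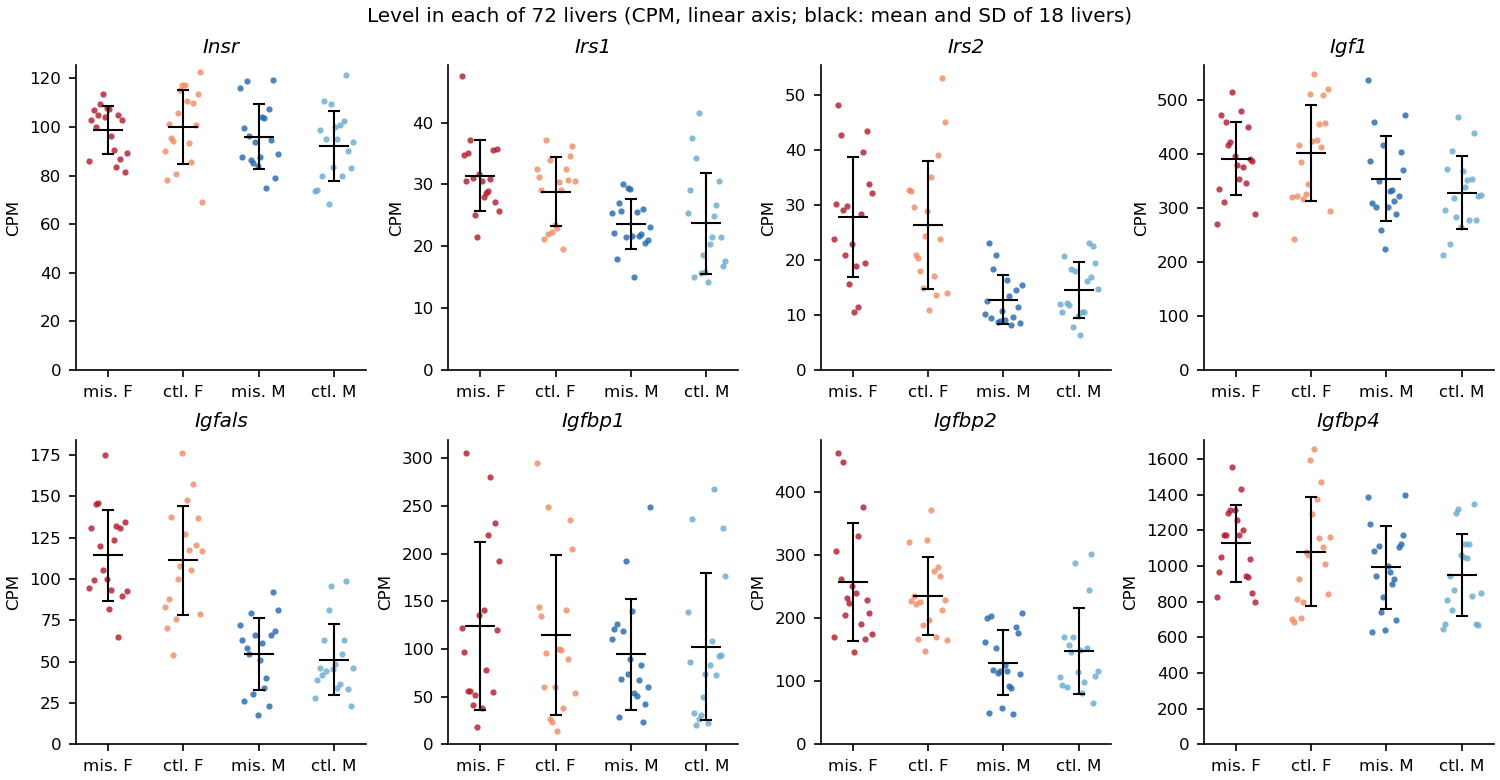
Level of each gene in CPM (vertical axes, linear, from 0) in 18 livers each of misaligned females, control females, misaligned males and control males (points), with the mean and SD in black. Igfals, Irs2 and Igfbp2 lie higher in females of both treatments, while misaligned and control livers of the same sex overlap for all 8 genes.

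Females had higher levels of several members than males under both treatments, and no member was lower in females by the test. In misaligned mice 4 of the 8 genes passed (Igfals, Irs2, Igfbp2 and Irs1), and in control mice 5 passed (the same 4 and Igf1). Of all tested genes, 37.7% were called between the sexes in misaligned mice and 32.9% in controls, with 17.8% and 16% higher and 19.9% and 17% lower in females, so being called is common in this comparison.

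Insr, the receptor itself, showed no sex difference by the test. Its lowest, median and highest levels were 81.5, 103 and 114 CPM in misaligned females, against 74.8, 94.3 and 119 CPM in misaligned males. In controls they were 69.1, 101 and 123 CPM in females and 68.3, 94.4 and 121 CPM in males. The ranges overlap almost fully. The female minus male difference was 0.04 ± 0.07 in misaligned and 0.12 ± 0.07 in control mice (log2, SE; adjusted p = 0.677 and 0.198).

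Irs2, the adaptor that fasting raises in liver, was higher in females and varied widely within each group. It had a lowest, median and highest level of 10.5, 28.7 and 48.2 CPM in misaligned females and of 8.25, 11.1 and 23.2 CPM in misaligned males. In controls the values were 11, 24.1 and 53.1 CPM in females against 6.28, 13.5 and 23.1 CPM in males. The highest male values lay below the female medians, and the lowest female values lay within the male range. Females were higher at 6 of 6 clock times under both treatments, by 1.08 ± 0.17 in misaligned mice (log2, SE; adjusted p = 6.6e-07) and by 0.86 ± 0.17 in controls (adjusted p = 4.2e-05).

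Irs1, the second adaptor, differed less. It ran from 21.5 over a median of 30.8 to 47.6 CPM in misaligned females, against 15.1, 22.6 and 30.1 CPM in misaligned males, and from 19.6 over 30.5 to 37.2 CPM in control females, against 14.2, 21.5 and 41.5 CPM in control males. The control male with the highest level exceeded every control female. The difference was 0.41 ± 0.09 in misaligned mice (log2, SE; adjusted p = 3.3e-04, higher in females at 5 of 6 clock times). In controls it was 0.32 ± 0.09 (adjusted p = 0.0054, 4 of 6 clock times), and that call was lost without replicate number 2 (0.13), the 8 h livers (0.0544) or the 20 h livers (0.129).

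Igf1, the hormone, had a lowest, median and highest level of 270.1, 389 and 514 CPM in misaligned females, against 223, 332 and 538 CPM in misaligned males. Control females had 243, 415 and 547 CPM, and control males 213, 323 and 469 CPM. The female and male ranges overlap widely. Females exceeded males by 0.28 ± 0.10 in controls (log2, SE; adjusted p = 0.0199, at 6 of 6 clock times), and the corresponding 0.15 ± 0.10 in misaligned mice did not pass (adjusted p = 0.214). Without replicate number 1 the control difference was 0.17 with an adjusted p of 0.326, and without the 12, 16 or 20 h livers the adjusted p was 0.0812, 0.0545 or 0.0842.

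Igfals, which encodes the acid-labile subunit that stabilises circulating IGF complexes, had the largest sex difference among the members. Its lowest, median and highest levels were 65.1, 113 and 175 CPM in misaligned females, against 17.9, 59.5 and 92.1 CPM in misaligned males. In controls they were 53.8, 112 and 177 CPM in females and 23.1, 45.7 and 98.5 CPM in males. The lowest female livers fell within the male range in each treatment, while both female medians lay above every male liver. Females were higher at 6 of 6 clock times in each treatment, by 1.103 ± 0.15 in misaligned mice (log2, SE; adjusted p = 4.8e-08) and by 1.16 ± 0.15 in controls (adjusted p = 1.9e-08).

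Igfbp2, an IGF binding protein made by hepatocytes, had a lowest, median and highest level of 146, 230.2 and 462 CPM in misaligned females, against 48.3, 117 and 208 CPM in misaligned males. Control females had 148, 226 and 371 CPM, and control males 64.8, 131 and 301 CPM. No misaligned male reached the median of the misaligned females. The difference was 1.00 ± 0.17 in misaligned mice (log2, SE; adjusted p = 5.1e-06) and 0.73 ± 0.17 in controls (adjusted p = 6.6e-04), with females higher at 6 of 6 clock times in both.

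Igfbp4, the most abundant binding protein transcript of the set, had a lowest, median and highest level of 800.3, 1174 and 1559 CPM in misaligned females against 628, 983 and 1399.5 CPM in misaligned males, and of 687, 1071 and 1659 CPM in control females against 648, 904 and 1350.5 CPM in control males. The ranges overlap throughout. Its sex difference of 0.18 ± 0.08 in misaligned and 0.18 ± 0.08 in control mice fell just short of the threshold (adjusted p = 0.053 and 0.0673), and in misaligned mice it passed with DESeq2 (0.0473) and limma-voom (0.0394). Igfbp1, the binding protein that insulin lowers, spread far more within each group than between the sexes. It ran from 17.7 over a median of 108 to 305 CPM in misaligned females, against 23.2, 78.1 and 249 CPM in misaligned males, and from 14 over 97.3 to 295 CPM in control females, against 20.3, 84.7 and 267 CPM in control males. Its sex difference was 0.27 ± 0.30 in misaligned and 0.24 ± 0.30 in control mice (adjusted p = 0.508 and 0.579).

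Counts within introns, which come largely from unspliced RNA, were available for all 8 genes and gave a second readout. Of 10250 genes tested in introns, 19.2% were called between the sexes in misaligned mice and 16.5% in controls. Intron counts of Igfals had a median of 18.5 in misaligned females against 6 in misaligned males, and of 19.5 in control females against 7 in control males. The differences were 1.49 ± 0.24 (adjusted p = 1.4e-06) and 1.49 ± 0.24 (adjusted p = 3.3e-06). Igfbp2 introns had a median of 135.5 counts in misaligned females against 60.5 in misaligned males, and of 157 in control females against 60.0 in control males, and differed by 1.23 ± 0.22 (adjusted p = 2.2e-05) and 1.097 ± 0.22 (adjusted p = 1.6e-04). These 2 genes passed in introns under both treatments. In control mice alone Irs2 (0.96 ± 0.34, adjusted p = 0.0425), Irs1 (0.46 ± 0.16, 0.0354) and Igfbp4 (0.30 ± 0.09, 0.0168) passed as well, with females higher in each, and the number of members called in controls was 2 without replicate number 1 or 2 and 5 without number 3. Irs2 introns rest on medians of 4 to 7.5 counts per liver, so their precision is low. Igf1, Igfbp1 and Insr introns did not pass in either treatment.

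**Figure D2:**
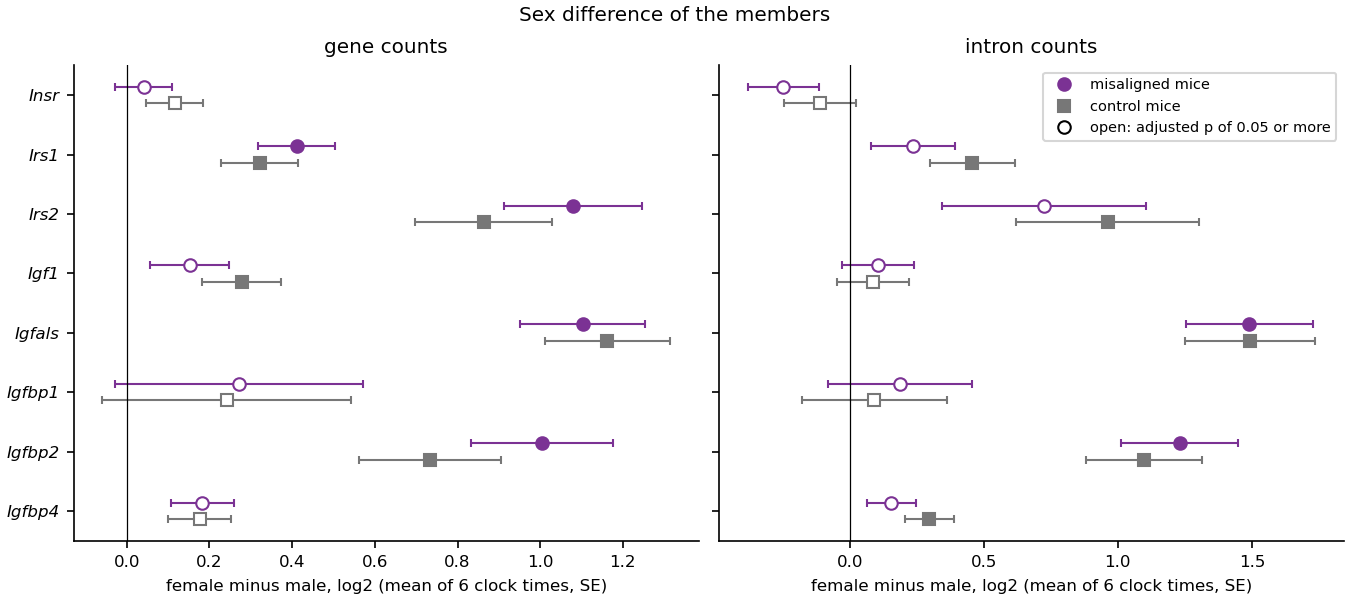
Female minus male difference (log2, mean of 6 clock times, SE; horizontal axes) of the 8 genes in gene counts (left) and intron counts (right), for misaligned mice (circles) and control mice (squares), with filled symbols at an adjusted p under 0.05. Igfals and Igfbp2 are filled in both panels under both treatments, while Insr and Igfbp1 are open throughout.

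Cell type markers also moved with sex. The summed level of 9 hepatocyte markers had a lowest, median and highest value of 98780, 117000 and 144900 CPM in misaligned females and of 75800, 91550 and 118500 CPM in misaligned males. In controls these were 95870, 117000 and 137200 CPM in females and 76060, 90110 and 125900 CPM in males. In misaligned mice 5 of the 9 passed (4 higher in females), and in controls 3 of 9 (2 higher), beside 37.7% of all tested genes in misaligned mice (17.8% higher in females and 19.9% lower) and 32.9% in controls (16% higher and 17% lower). Sinusoidal endothelial markers were higher in females for 6 of 8 in misaligned and 4 of 8 in control mice, with summed medians of 374 CPM in misaligned females against 278 CPM in misaligned males and of 353 CPM in control females against 291 CPM in control males. Of 8 Kupffer cell and macrophage markers, 3 passed in misaligned and 5 in control mice, all higher in females. Stellate and fibroblast markers passed for 4 of 8 in each treatment, in both directions, and cholangiocyte markers for 2 of 6. The 8 blood cell markers passed for 1 in misaligned mice, lower in females, and for 7 in control mice, 6 of them higher in females. T and B cell markers passed for 0 of 5 in misaligned and 2 of 5 in control mice. Of the adipocyte and pancreas markers only 1 each was high enough to test, and both were lower in females. No marker in the table was at 0 in all 72 livers. The part of cell composition in the sex differences of the 8 genes was not tested.

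Averaged over the day, no member passed the test for a difference between misaligned and control livers. The largest mean effects were 0.13 ± 0.30 for Igfbp1 in females and -0.17 ± 0.17 for Irs2 in males (log2, SE; adjusted p = 0.954 and 0.9). By edgeR 0 of 8 members passed in females, in males or in the sex difference of the effect, 0 had an unadjusted p under 0.05 in any of these 3, and DESeq2 and limma-voom also called 0. Among all tested genes 0.00664% were called in females, 0% in males and 0% in the difference. The 1 gene called in females was 1 of the 8 blood cell markers, lower in misaligned livers. The summed blood cell markers had medians of 145.8 CPM in misaligned and 351 CPM in control females. In males the medians were 246.4 CPM in misaligned and 200.5 CPM in control livers. Misaligned and control means of the same sex differed by less than 1 SD for each of the 8 genes, for example 115 ± 27.6 CPM in misaligned and 111 ± 32.8 CPM in control females for Igfals (SD, n = 18 each). For Igfbp1, Irs2, Igfbp2 and Igfals, the intervals that the SEs give still leave room for moderate effects. Their SEs in that order were 0.30, 0.16, 0.17 and 0.15 in females and 0.30, 0.17, 0.17 and 0.15 in males.

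Differences between misaligned and control livers appeared by clock time, in males, for Igfbp4 and Igfals. The test of unequal effects across the 6 clock times passed for these 2 of 8 members in males (adjusted p = 3.8e-04 for Igfbp4 and 0.0212 for Igfals), where 9.26% of all genes passed. In females 0 of 8 passed, with 1 member, Igfbp4, at an unadjusted p under 0.05 (0.0099), 0 called by DESeq2 or limma-voom, and 0.0332% of all genes called. The male Igfbp4 result was lost without replicate number 1 (0.107) or 2 (0.0915). The male Igfals result was lost without replicate number 1 (0.346) or 2 (0.093) and without the 8 h (0.0701) or 20 h livers (0.231). Of the marker genes, 1 of 9 for hepatocytes and 2 of 8 for stellate cells and fibroblasts passed the same test in males, and their part in the result was not tested. In intron counts the test across clock times in males passed neither for Igfbp4 (adjusted p = 0.875) nor for Igfals (0.203). Of all genes tested in introns, 1.45% passed it.

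At 20 h, Igfbp4 had 1126, 1174 and 1399.5 CPM in misaligned males, against 676, 670.4 and 849 CPM in control males. Every misaligned male liver lay above every control male liver. The difference was 0.75 ± 0.19 (log2, SE; adjusted p = 0.0076), at a time when 14.4% of all genes were called in males and 8.31% were called higher. At 8 h the order was turned round, with 741, 824 and 640.3 CPM in misaligned males against 1297, 1319 and 1062 CPM in control males, again without overlap, and the difference of -0.74 ± 0.19 missed the threshold (adjusted p = 0.0563). At 0 h, 2 misaligned males had 1389 and 1238 CPM and the other 628 CPM, against 648, 674 and 808 CPM in control males. The third misaligned male thus fell below all 3 control males while the other two lay well above them. At 20 h the Igfbp4 call was lost without replicate 3 of the misaligned males (0.0544) or replicate 2 of the control males (0.0644), with differences of 0.65 and 0.71, and without replicate number 1 or 2 in every group (0.086 and 0.142).

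Igfals, the subunit that stabilises circulating IGF1, was also called in males at 20 h. At 20 h it had 92.1, 68.6 and 81.1 CPM in misaligned males, against 33.1, 23.1 and 46.3 CPM in control males. The groups did not overlap, and the difference was 1.24 ± 0.37 (log2, SE; adjusted p = 0.0227). At 8 h it had 30.7, 66.0 and 17.9 CPM in misaligned males against 81.5, 95.9 and 45.4 CPM in control males. Those groups overlap, and the difference of -0.96 ± 0.37 did not pass (adjusted p = 0.279). The 20 h call did not survive leaving out replicate 1 or 3 of the misaligned males (0.0625 and 0.0666) or replicate 1 or 2 of the control males (0.0664 and 0.157). It was also lost without replicate number 1 or 2 in every group (0.202 and 0.154) and in a fit of the compared libraries alone (0.0598), and the test across clock times did not survive leaving out replicate 2 of the control males at 20 h (0.0642).

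**Figure D3:**
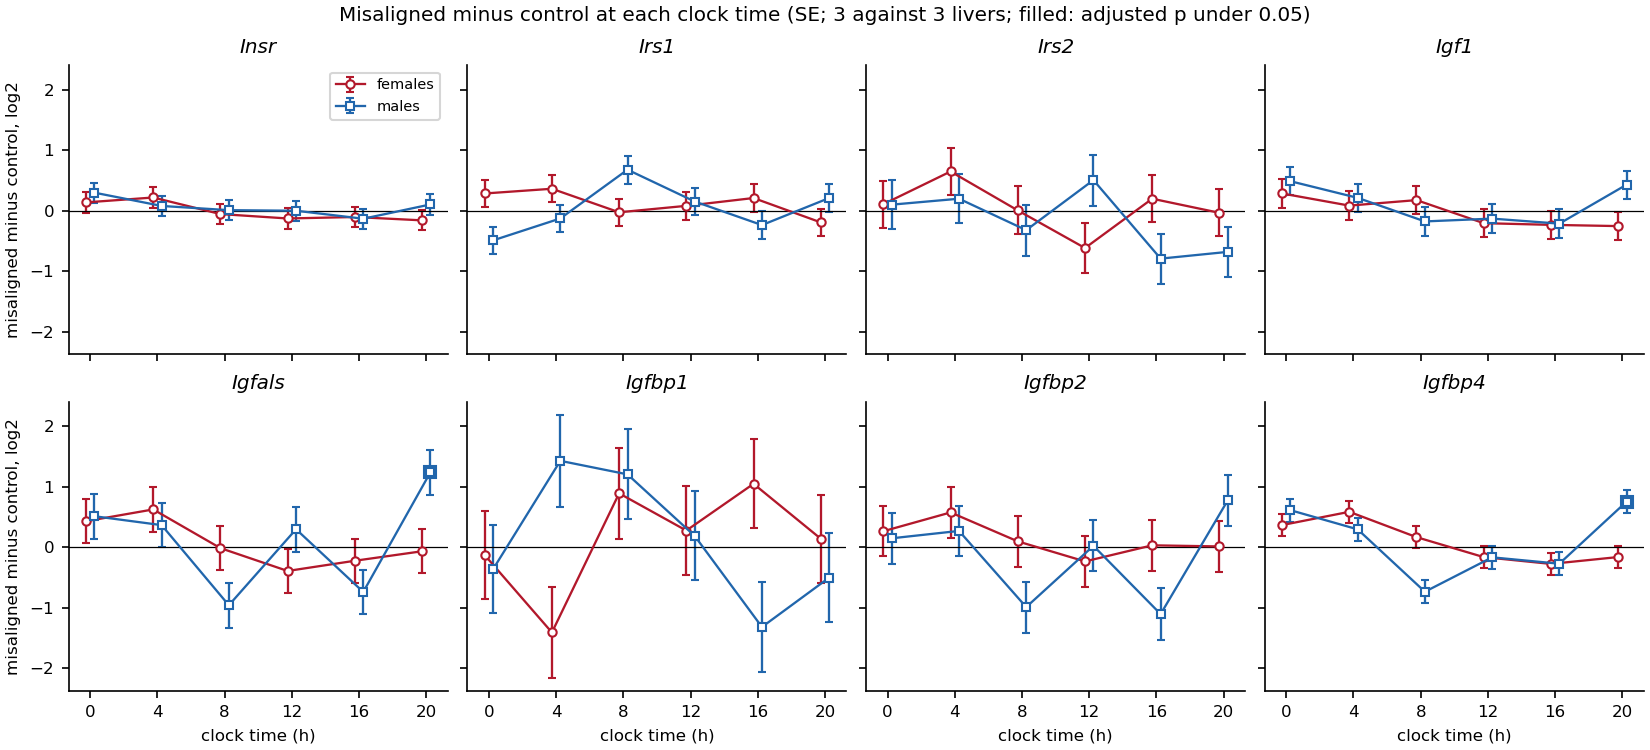
Misaligned minus control difference (log2, SE, vertical axes) at each clock time (h, horizontal axes) for the 8 genes, 3 against 3 livers, in females (circles) and males (squares), with filled symbols at an adjusted p under 0.05. Only the 20 h values of Igfals (1.24) and Igfbp4 (0.75) in males are filled, and the males' values of Igfals, Igfbp2 and Igfbp4 lie below 0 at 8 and 16 h and above 0 at 20 h.

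At the other clock times no member was called in either sex. In males the share of all genes called there was highest at 16 h, with 1.08%, against 0.392% at 8 h and 0.378% at 0 h. In females it was highest at 16 h too, with 0.0664%, of which 0.0597% were lower in misaligned livers. Igfbp2 had differences of -0.99 ± 0.42 at 8 h, -1.11 ± 0.42 at 16 h and 0.78 ± 0.42 at 20 h in males, none past the threshold (adjusted p = 0.328, 0.186 and 0.204). Its test across clock times gave an adjusted p of 0.099 and passed without replicate 3 of the misaligned males at 0 h (0.0407) or at 16 h (0.022). Irs1 differed by 0.68 ± 0.23 at 8 h and by -0.49 ± 0.23 at 0 h (adjusted p = 0.199 and 0.564), with a test across clock times at 0.092 that passed without replicate 1 of the control males at 4 h (0.0192). Igfbp1 showed differences of 1.43 ± 0.76 at 4 h and -1.32 ± 0.75 at 16 h, neither called. Insr stayed within 0.30 of control at every clock time in males and within 0.22 in females.

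A daily rhythm, fitted as a 24 h cosine, was firmest for Igfbp4. Amplitudes run from the mean to the peak in log2. In misaligned females it had an amplitude of 0.33 ± 0.08 with a peak at 8.67 ± 0.87 h (SE; adjusted p = 0.0069), and in control females 0.49 ± 0.08 with a peak at 12.7 ± 0.60 h (adjusted p = 1.7e-05). Its level in misaligned females was highest at 8 h, with 1317, 1559 and 1316 CPM, and lowest at 20 h, with 1041, 850.2 and 800.3 CPM. In control females it was highest at 12 h, with 1295, 1659 and 1379 CPM, and lowest at 0 h, with 705, 687 and 817 CPM. In males the fitted amplitude was 0.27 ± 0.08 with a peak at 21.6 ± 1.1 h after misalignment (adjusted p = 0.34) and 0.40 ± 0.08 with a peak at 10.97 ± 0.72 h in controls (adjusted p = 6.7e-04). Without the low replicate 3 of the misaligned males at 0 h, the rhythm of misaligned males passed as well (0.0484). The rhythm was lost in misaligned females without replicate number 1 (0.0531) or 2 (0.191) and without the 8 h (0.0759) or 20 h livers (0.0884), and in control males without replicate number 1 (0.101) or 2 (0.081). Introns of Igfbp4 gave no called rhythm in any of the 4 groups (adjusted p from 0.0905 to 0.993).

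The rhythm of Igfbp4 changed with misalignment in males (adjusted p = 8.5e-05, 1 of 8 members, against 9.23% of all genes), a call lost without replicate number 1 (0.0754). In females the change did not pass (adjusted p = 0.123, but 0.0426 with total counts and 0.0341 in a fit of the compared libraries alone; 0 of 8 members, 1 member at an unadjusted p under 0.05, 0 by DESeq2 and limma-voom, 0.192% of all genes). The female and male changes of Igfbp4 themselves differed (adjusted p = 0.0138, 1 of 8 members, against 1.73% of all genes). That difference was lost without replicate number 1 or 2 (0.31 and 0.355) and without the 4, 8 or 20 h livers (0.0659, 0.412 and 0.43). Introns of Igfbp4 passed neither for the change in males (adjusted p = 0.561) nor for the sex difference of the change (0.733). Of all genes tested in introns, 2.18% and 0.644% passed. Between control females and control males no member had a called difference in rhythm, 0 members had an unadjusted p under 0.05, DESeq2 and limma-voom called 0, and 0% of all genes were called.

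Other IGF genes had fitted peaks at similar hours to Igfbp4 in males, though their rhythms did not pass. In misaligned males the peaks were at 22.3 ± 1.7 h for Igfals, 23.0 ± 1.4 h for Igf1 and 23.3 ± 2.0 h for Igfbp2, against 10.5 ± 1.6, 12.2 ± 2.5 and 11.95 ± 2.2 h in control males. Amplitudes were 0.36, 0.25 and 0.33 in misaligned males and 0.39, 0.14 and 0.30 in control males. The change in rhythm had adjusted p-values of 0.0695 for Igfals, 0.102 for Igf1 and 0.229 for Igfbp2. Without replicate 3 of the misaligned males at 0 h the change passed for Igfals (0.0188) and Igf1 (0.0469).

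**Figure D4:**
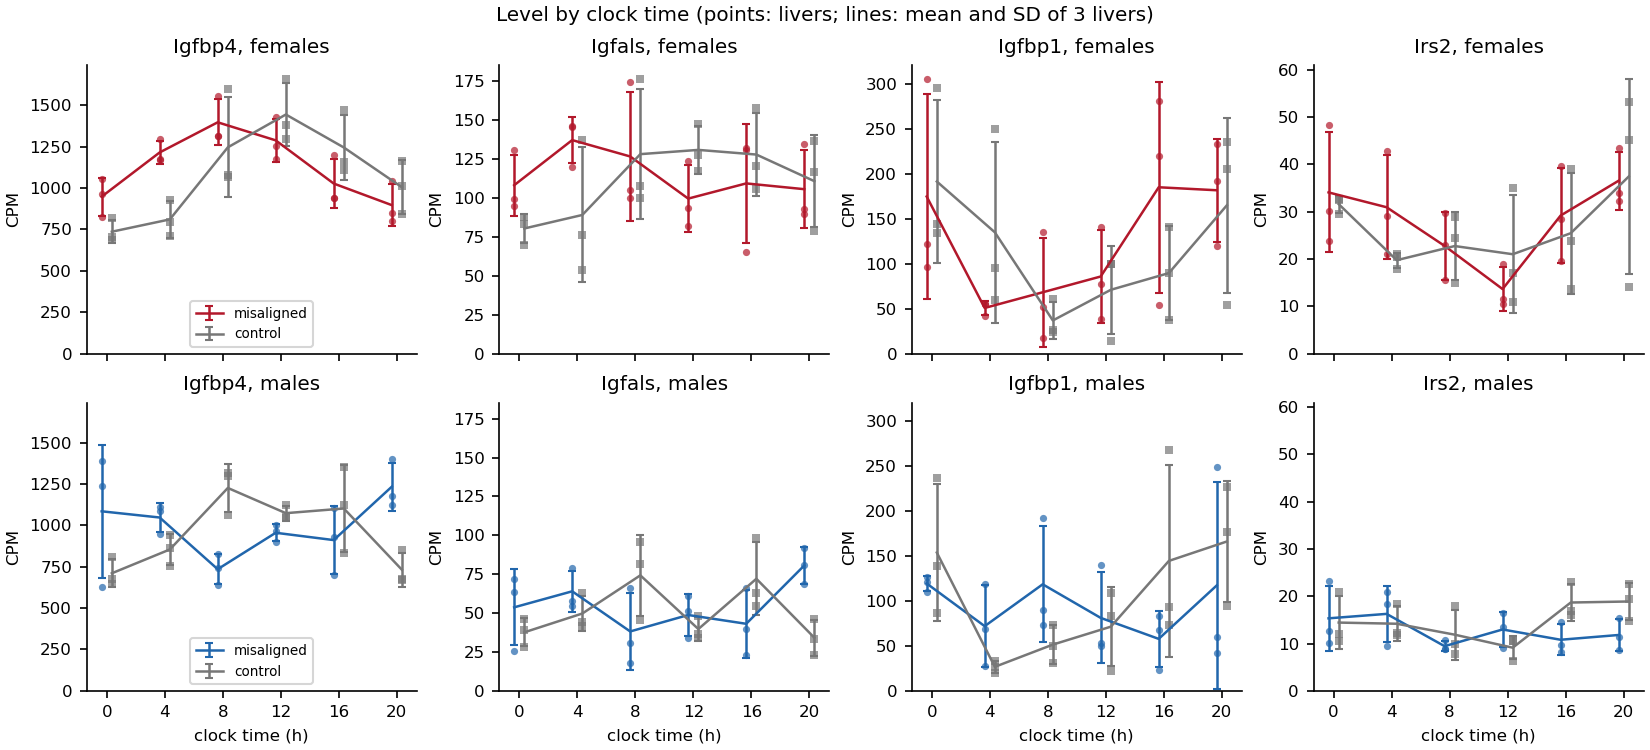
Level in CPM (vertical axes, linear, from 0) by clock time (h, horizontal axes) of Igfbp4, Igfals, Igfbp1 and Irs2 in females (top) and males (bottom), with misaligned livers as coloured circles, control livers as grey squares, and lines for the mean and SD of 3 livers. The highest mean of Igfbp4 is at 8 h in misaligned females and control males and at 12 h in control females, while in misaligned males it is 1233 CPM at 20 h.

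Igfbp1 had the highest fitted amplitude of the 8 genes in misaligned females, control females and control males, but not in misaligned males. There the fitted amplitudes of Igfals (0.36 ± 0.16), Igfbp2 (0.33 ± 0.18) and Igfbp4 (0.265 ± 0.08) were higher but within their errors of that of Igfbp1. In control males its rhythm passed, peaking at an amplitude of 1.16 ± 0.30 near 19.1 ± 0.98 h (adjusted p = 0.025), and together with Igfbp4 it made 2 of 8 members called there, against 10.8% of all genes. Control males had 94.1, 227 and 177 CPM at 20 h and 33.1, 20.3 and 26.6 CPM at 4 h. In misaligned males the amplitude was 0.26 ± 0.30 (adjusted p = 0.953), with 41.7, 60.3 and 249 CPM at 20 h and 28.1, 68.3 and 119 CPM at 4 h, and the change was not called (adjusted p = 0.132). It passed without replicate 3 of the misaligned males at 20 h (0.0433) and without replicate number 3 (0.0442). Misaligned females had an amplitude of 0.97 ± 0.30 with a peak at 19.2 ± 1.2 h, and control females 0.99 ± 0.30 with a peak at 22.4 ± 1.1 h (adjusted p = 0.0882 and 0.0575). The control male call was lost without replicate 3 at 4 h (0.0503), replicate 1 at 8 h (0.0635), replicate 1 at 16 h (0.0517) or replicate 2 at 20 h (0.0644), and without replicate number 1 (0.286) or 2 (0.256) or the 4 h livers (0.153). The control female rhythm passed with DESeq2 (0.0373) and limma-voom (0.0306).

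In introns, the cosine rhythm of Igfbp1 passed the threshold in 3 of the 4 groups. The amplitude was 1.24 ± 0.28 with a peak at 18.9 ± 0.84 h in misaligned females (adjusted p = 0.0151), 1.27 ± 0.28 at 21.7 ± 0.82 h in control females (0.0115) and 1.25 ± 0.28 at 19.1 ± 0.84 h in control males (0.016). In misaligned males it was 0.29 ± 0.27 (0.946). None of the 3 calls held without replicate number 1 or without number 2 (0 members called in each group). The test for any difference among clock times passed in control females (0.0374) but not in misaligned females (0.0995) or control males (0.064). The change of the intron rhythm in males had an adjusted p of 0.0584, and 1 member was called without replicate number 3. Igfbp1 was the 1 member of 8 called in each of these 3 groups, against 2.54%, 4.8% and 3% of all genes in introns, and 0 of 8 members were called in misaligned males, none of them below 0.05 before adjustment (0 members), where 0.0195% of all genes were called.

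Differences among the 6 clock times of any shape passed for 0 of 8 members in misaligned females (2 before adjustment), where 3.64% of all genes passed, for Igfbp4 in control females (adjusted p = 5.1e-04), where 6.84% passed, and for 0 of 8 in misaligned males (1 before adjustment), where 0.073% passed. In control males Igfbp4 (0.0052) and Irs1 passed, where 10.2% passed. Rhythms of the remaining members were weaker. In misaligned females, Igfbp4 was the 1 member of 8 called, against 7.69% of all genes, in control females it was again the 1 of 8, against 12%, and in misaligned males 0 of 8 were called, against 0.00664% (2 members at an unadjusted p under 0.05, 0 by DESeq2 and limma-voom). Irs2 in misaligned females had an amplitude of 0.57 ± 0.16 with a peak at 22.8 ± 1.1 h, just outside the threshold (adjusted p = 0.0599), and passed with DESeq2 (0.0442) and limma-voom (0.0375). Its fitted peaks in controls fell at 20.7 ± 1.5 h in control females and 20.5 ± 1.6 h in control males. Irs1 differed among the clock times in control males (adjusted p = 0.0068), from 25.4, 29.1 and 37.4 CPM at 0 h to 15.7, 18.6 and 15.9 CPM at 8 h, while its cosine did not pass (0.134). Insr had amplitudes of 0.05 to 0.13 in the 4 groups, none called.

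Splicing of Igf1 was measured from reads across exon junctions, with at least 505 reads per liver at exon 5. The share of Igf1 transcripts that include exon 5 had a lowest, median and highest value of 26.8%, 29.5% and 35.3% in misaligned females, against 25.7%, 32.5% and 35.9% in misaligned males. In controls it was 27.1%, 30.3% and 34.5% in females and 29.0%, 32.5% and 36.2% in males. The ranges overlap, with female medians below male medians. Females minus males differed by -2.28 ± 0.90 percentage points in misaligned mice and by -1.64 ± 0.68 points in controls (SE, n = 18 each; permutation test within clock times, 2-sided, p = 0.018 and 0.025, adjusted over 8 splicing comparisons p = 0.1 and 0.1). Neither passed the correction, and the share was higher in females at 0 of 6 clock times in misaligned mice and at 1 of 6 in controls. Misaligned minus control differences were -0.39 ± 0.84 points in females and 0.25 ± 0.75 points in males (permutation test, adjusted p = 0.854 and 0.854).

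Use of the second of the alternative Igf1 leader exons averaged 38.9 ± 3.9% in misaligned females, 38.8 ± 3.3% in control females, 38.1 ± 3.5% in misaligned males and 39.4 ± 4.3% in control males (SD, n = 18 each). None of the 4 comparisons passed (permutation test, adjusted p from 0.854 to 0.93). For Insr exon 11 the junction reads were few. Over all 72 livers, the junctions into and out of the exon had 139 and 169 reads, and the junction that skips it had 9, in 8 livers. Skipping made up 5.52% against the mean of both including junctions and 6.08% against the smaller one, with a 95% Wilson interval of 3.23% to 11.2% for the smaller count, which covers counting error only. Of the livers, 7 reached 10 reads, so no comparison between groups was made.

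Liver-to-liver variation within groups linked several members. Residuals of log2 CPM from the 24 group means were correlated over 72 livers for 28 pairs of members and 32 pairs of a member with 1 of 4 other genes, Arntl, Dbp and Pck1 among them, 60 relations in all, with permutations within groups. Of these, 12 passed after adjustment, 8 between members and 4 with Pck1, and all 12 were positive. The share of such relations among pairs of other genes was not computed, so whether these members vary together more than other liver genes was not tested. Igfals and Igfbp4 were the closest pair, with Pearson's r = 0.70 and Spearman's rho = 0.65 (permutation p = 1e-05 for each, the smallest that 100000 draws can give; adjusted p = 3e-04 for each). Leaving out the 2 livers with the Igfals residuals farthest from the median gave r of 0.67. Here and below, these livers were chosen by 1 gene of each pair, so livers extreme in the other gene could stay in. Within the groups r was 0.36 in misaligned females, 0.83 in control females, 0.82 in misaligned males and 0.52 in control males. The pair did not pass without replicate number 3 (r = 0.50, adjusted p = 0.378). With 1 replicate number left out, 0 to 8 of the 60 relations passed.

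Igf1 varied with Igfbp2 (r = 0.62, rho = 0.64; permutation p = 2e-05 for each, adjusted p = 4e-04 and 3e-04), Insr (r = 0.59, rho = 0.54; permutation p = 7e-05 and 1.5e-04, adjusted p = 8.4e-04 and 0.0015) and Igfals (r = 0.54, rho = 0.55; permutation p = 3e-05 and 2e-05, adjusted p = 4.5e-04 and 3e-04). Without the 2 farthest livers these r were 0.60, 0.52 and 0.49. Igfbp2 varied with Igfbp4 (r = 0.58, rho = 0.50; permutation p = 5.2e-04 and 5.9e-04, adjusted p = 0.0035 and 0.0051) and with Igfals (r = 0.57, rho = 0.54; permutation p = 1.3e-04 and 1.2e-04, adjusted p = 0.0013 and 0.0014), and without the 2 farthest livers r was 0.47 and 0.53. Within misaligned females, however, Igfals and Igfbp2 had r = -0.09, against 0.51 in control females, 0.83 in misaligned males and 0.70 in control males. Igf1 also varied with Igfbp4 (r = 0.42, rho = 0.41; permutation p = 0.0047 for each, adjusted p = 0.0234 and 0.0255; 0.41 without the 2 farthest livers). Without replicate number 3, r was 0.26 for Igfals with Igfbp2, 0.10 for Igfbp2 with Igfbp4 and 0.11 for Igf1 with Igfbp4 (adjusted p = 0.611, 0.788 and 0.754). Adjusted p was also above 0.05 without number 1 for all 3 (0.173, 0.0618 and 0.18) and without number 2 for Igf1 with Igfbp4 (0.0622). Igf1 with Igfals was above it without each number (0.0767, 0.0578 and 0.133), and Igf1 with Igfbp2 and with Insr without number 1 (0.0516 and 0.18) or 3 (0.133 for both).

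Irs2 and Igfbp1 are both known to be lowered by insulin. Over all livers they had r = 0.53 and rho = 0.46 (permutation p = 2.6e-04 and 0.0012, adjusted p = 0.0022 and 0.0083), and 0.48 without the 2 farthest livers. It was 0.74 in misaligned females, 0.74 in control females, 0.14 in misaligned males and 0.32 in control males, with an adjusted p of 0.196, 0.0986, 0.877 and 0.589 in that order. The relation also missed the threshold without replicate number 1, 2 or 3 (adjusted p = 0.106, 0.1 and 0.378). Pck1, a gluconeogenic enzyme gene that insulin also lowers, varied with Igfbp1 (r = 0.55, rho = 0.60; permutation p = 1e-05 for each, adjusted p = 3e-04), Igfbp4 (r = 0.50, rho = 0.44; permutation p = 0.0011 and 0.0025, adjusted p = 0.0064 and 0.0148), Igfbp2 (r = 0.48, rho = 0.46; permutation p = 4e-04 and 0.001, adjusted p = 0.003 and 0.0075) and Igf1 (r = 0.45, rho = 0.39; permutation p = 0.0037 and 0.0081, adjusted p = 0.0204 and 0.0373). Leaving out the 2 farthest livers gave r of 0.55, 0.44, 0.47 and 0.45, and leaving out replicate number 3 gave r of 0.31 for Igfbp2 and 0.12 for Igf1 with Pck1. With number 3 left out none of the 4 passed (adjusted p = 0.133, 0.611, 0.611 and 0.742), and without number 1 or 2 only Igfbp1 with Pck1 did (0.0198 and 0.0174). None of the 8 genes passed with the clock genes Arntl and Dbp by Pearson's r, and by Spearman's rho Igfbp1 and Arntl passed (0.40, adjusted p = 0.0259).

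**Figure D5:**
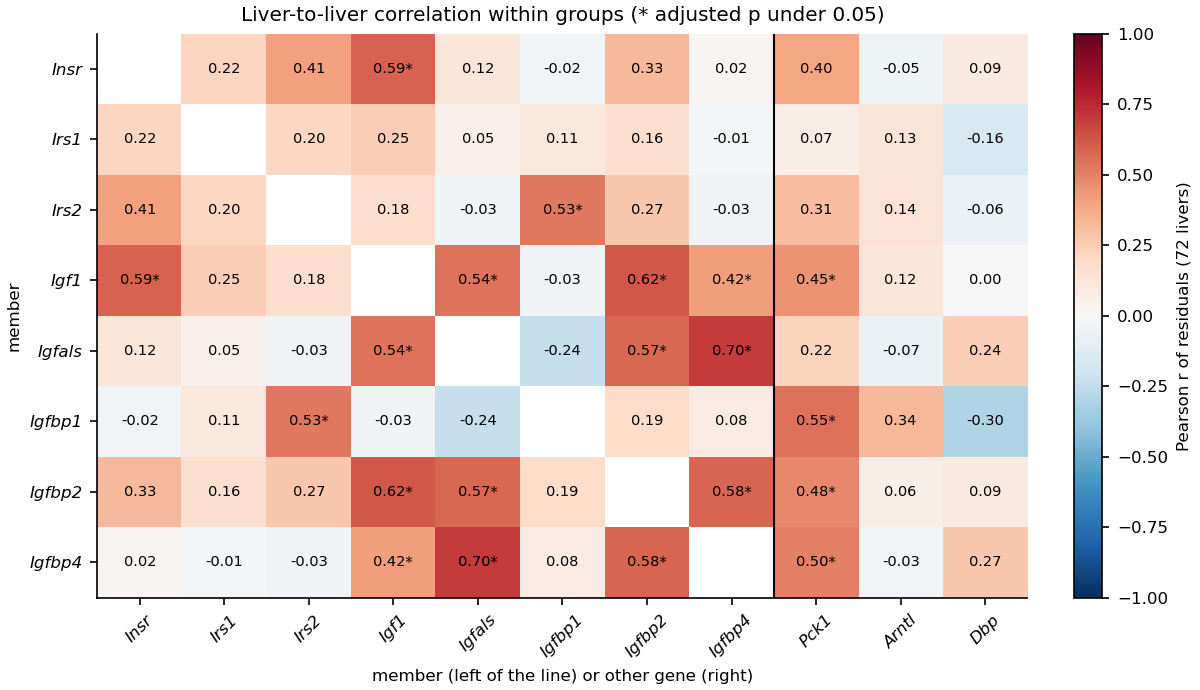
Pearson's r of residuals from the group means over 72 livers, for each pair of the 8 genes and for each of them with Pck1, Arntl and Dbp (colour scale from -1 to 1, values printed, star at an adjusted p under 0.05). The block of Igf1, Igfals, Igfbp2 and Igfbp4 is starred throughout, and Irs2 with Igfbp1 and Insr with Igf1 stand outside it.

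Genes around the members were counted from lists of the insulin and IGF pathways. No list gene was called for the mean effect of misalignment in either sex. Among 24 tested genes listed as inhibitors and other modulators of insulin signalling, 14 differed between the sexes in misaligned mice (10 higher and 4 lower in females, median of the list 0.12 in log2) and 13 in controls (8 higher and 5 lower, median 0.09). Of all tested genes, 37.7% differed in misaligned mice (17.8% higher and 19.9% lower in females) and 32.9% in controls (16% higher and 17% lower), and the medians over all genes were 0.01 in both. Enpp1, a membrane protein that can bind and inhibit the insulin receptor, had a lowest, median and highest level of 34.1, 44.6 and 62.0 CPM in misaligned females against 24.6, 29.1 and 34.5 CPM in misaligned males, and was higher in females by 0.63 ± 0.06 (adjusted p = 9.9e-13) and, in controls, by 0.54 ± 0.06 (1.5e-10). Its ranges in misaligned mice barely meet. Grb14, an adaptor that blocks the receptor's kinase, was lower in females, by -0.53 ± 0.05 in misaligned mice (7.2e-12) and -0.42 ± 0.05 in controls (6.6e-09). Ide, the insulin-degrading enzyme, was also lower in females, by -0.78 ± 0.12 (6.3e-07) and -0.64 ± 0.12 (2.8e-05), and Sh2b1 was higher by 0.31 ± 0.06 (1.9e-05) and 0.27 ± 0.06 (1.6e-04). Sh2b1 encodes an adaptor known to enhance insulin receptor signalling, so it is no inhibitor although the list counts it.

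Among 29 tested relay genes from the adaptors to mTOR, 14 differed between the sexes in misaligned mice (6 higher and 8 lower in females, median -0.07) and 12 in controls (6 higher and 6 lower, median -0.03), beside 37.7% and 32.9% of all tested genes. Eif4ebp2, a repressor of translation that mTOR inactivates, was higher in females by 0.40 ± 0.06 (7.3e-08) in misaligned mice and 0.41 ± 0.06 (7.4e-08) in controls. Mtor itself was lower in females, by -0.54 ± 0.08 (8.3e-08) and -0.20 ± 0.08 (0.0375). Foxo4 was higher by 0.43 ± 0.06 (8.7e-08) and 0.35 ± 0.06 (7.1e-06), and the kinase gene Gsk3b lower by -0.37 ± 0.06 (7.8e-07) and -0.40 ± 0.06 (2.1e-07).

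Of 6 listed receptors and ligands beyond the members, 4 were among the counted genes and 2 passed the filter and were tested. Igf2r, which clears IGF2, was lower in misaligned females than in misaligned males (-0.46 ± 0.11, adjusted p = 9.0e-04), and in controls the difference was -0.24 ± 0.11 (0.0942). Igf1r, the IGF1 receptor, had medians of 3.41 CPM in misaligned females and 2.63 CPM in misaligned males, and passed only at 20 h in males, where misaligned livers were lower by -0.99 ± 0.32 (adjusted p = 0.03). Of 6 other tested genes for IGF binding proteins and their cleavage, 2 were higher in females in misaligned mice, Igfbp6 (0.87 ± 0.29, 0.0148) and Igfbp3 (0.23 ± 0.08, 0.0241), and 1, Igfbp7, lower in females in controls (-0.43 ± 0.11, 0.0018), while 17.8% of all tested genes were higher in females in misaligned mice and 17% lower in controls. Igfbp3 was also lower in misaligned than in control males at 20 h (-0.77 ± 0.21, 0.0126), when 6.07% of all genes were called lower, and Igfbp5 passed in no comparison. Igfbp6 lay near 1 CPM, so that its value rests on few counts.

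In the growth hormone arm, 1 of 4 genes was higher in females, beside 17.8% of all tested genes in misaligned mice and 16% in controls. This was Stat5b, the factor that carries the growth hormone signal to Igf1 and Igfals, by 0.36 ± 0.07 in misaligned mice (1.1e-05) and 0.21 ± 0.07 in controls (0.0115). It also cycled, with a peak at 22.6 ± 0.57 h in misaligned females, 22.1 ± 0.64 h in control females and 20.9 ± 0.70 h in control males (adjusted p = 1.0e-05, 5.5e-05 and 4.1e-04), and its rhythm changed in males (0.0037), where the fitted peak in misaligned livers was 3.41 ± 1.3 h (0.487). At 20 h it was lower in misaligned than in control males (-0.45 ± 0.16, 0.0491), opposite in sign to Igfals and Igfbp4, when 6.07% of all genes were called lower. Stat5a cycled in control males (0.0028), and Ghr and Jak2 passed in no comparison. Among 8 insulin and Foxo targets, 1 was higher in females, beside the same shares of all genes. This was Srebf1, a lipogenic factor that insulin raises, by 0.50 ± 0.16 in misaligned mice (0.0083) and 0.57 ± 0.16 in controls (0.0037). It was also higher in misaligned than in control males at 20 h (1.08 ± 0.39, 0.0498), when 8.31% of all genes were called higher. Pdk4, a fasting gene that spares glucose, cycled with peaks at 17.96 ± 0.79 h in misaligned females, 22.1 ± 0.67 h in control females and 19.0 ± 0.89 h in control males (0.0029, 1.2e-04 and 0.0103). Its amplitude in misaligned males was 0.30 ± 0.19 (0.831). These peaks lie near the fitted ones of Igfbp1, whose own rhythm in gene counts passed in control males only. The female and male changes of the Pdk4 rhythm differed (0.0367). Sesn3 cycled in control females (0.0194) and control males (1.5e-04), and its rhythm changed in males (0.0041).

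Across the 24 group means, the genes most like each member among 11657 genes were found by Pearson's r, a description without a test. Igfals was most like F7 (r = 0.96), Eef2 (0.96) and Lcat (0.95), and Igfbp4 most like Por (0.96), Slc9a3r1 (0.94) and Syngr2 (0.94). Among the 3 genes most like Igfbp2 were Hpd (0.95) and Pon1 (0.95). For Irs2 the closest were Dlc1 (0.91), Sned1 (0.90) and Arhgef10l (0.90), and for Igfbp1 they were Irf2bp2 (0.91), Pdk4 (0.90) and Chka (0.90). Igf1 was nearest to Chp1 (0.90), Fgf1 (0.90) and Acot1 (0.87), Irs1 to Slc26a1 (0.87), Crkl (0.87) and Magix (0.86), and Insr to March6 (0.86), Sepsecs (0.84) and Fam120a (0.84).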

How the data were processed

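Poly(A) RNA of 72 whole mouse livers was sequenced, and the deposited tables hold read counts per gene, per intron and per exon junction, for the sense and antisense strands. Alignment was with STAR 2.6.0c to GRCm38, per the submitters' processing notes, and the deposited values are whole-number counts, in a version with reads assigned to 1 gene and one that adds ambiguous reads. Library totals are nearly equal (highest over lowest 1.085 for genes and 1.016 for introns). Whether libraries were brought to one depth before deposit is not given in the sources used here, so totals say little about the original depth. The 3 replicates per group are biological per the labels, and replicate numbers were not taken as pairs.

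From the deposited counts, edgeR 4.0.16 (quasi-likelihood, robust, TMM scaling, R 4.3.3) was fitted to the 15066 genes that passed filterByExpr, with Benjamini-Hochberg adjustment over all of them at 0.05. One fit had 24 group means (48 residual degrees of freedom) and another a 24 h cosine and sine per sex and treatment (60). RPKM was computed from CPM and exon length. Intron counts were fitted alike. Log2 CPM for correlations used a prior count of 2, and permutation tests 100000 draws, 2-sided. Splicing shares needed at least 10 junction reads. limma 3.58.1 and DESeq2 1.42.0 were alternatives, and the fits were tested on simulated data. The 8 genes, the pathway and marker lists and the rule for naming list genes (at most 4 per list, those with the smallest p in the mean and rhythm tests) were chosen with earlier results of these data known. Promoter sequences are from RefSeq, matched by symbol for 7 of the 8 genes. Values of 1 gene of the correlation set and 1 of the most similar genes are not reported here.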

Additional observations from a re-analysis of the deposited data

Results flagged for a closer look

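The rhythm change of Igfbp4 with misalignment differed between females and males (adjusted p of the difference 0.0138 by edgeR). In females the fitted peak was at 8.67 ± 0.87 h in misaligned and 12.7 ± 0.60 h in control livers (SE), and in males at 21.6 ± 1.1 h in misaligned and 10.97 ± 0.72 h in control livers. In introns of Igfbp4 the difference between the sexes did not pass (adjusted p = 0.733 by edgeR). No explanation of the difference was tested.

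Antisense counts, which no comparison used, were above the limit of 3 counts that a count of 0 allows for each of the 8 genes. Summed over 72 libraries they were 43 for Insr, 10 for Irs1, 7 for Irs2, 151 for Igf1, 4 for Igfals, 7 for Igfbp1, 30 for Igfbp2 and 481 for Igfbp4. As a percentage of sense counts they ran from 0.00564% for Igfals to 0.0541% for Igfbp4.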

How the results depend on the processing

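Across 222 results, 8036 of 8328 alternative values kept their side of the threshold or stayed within the allowed range of a count. A change of sign was set apart only where the main or the alternative value passed. Results that missed the threshold in both could change sign and still count as kept, so the total says little about the calls. The counts of members that follow moved, and the cause was not tested. Sex differences in controls (5) gave 3 without 20 h. Effects by clock time in males (2) gave 1 with no filter, without 8 h, without 20 h and with the compared libraries alone. Rhythms in misaligned females (1) gave 2 with DESeq2, total counts, a mean of at least 5 CPM, limma-voom and without 16 h, and 0 without 8 h, without 20 h and in the test across clock times. Rhythms in control females (1) gave 2 with DESeq2, total counts, at least 5 CPM, limma-voom and the replicate block (Igfbp1, adjusted p = 0.0369). Rhythms in control males (2) gave 1 with no filter, without 4 h and without 8 h. Rhythm changes in females (0) gave 1 with total counts and with the compared libraries alone. Rhythm changes in males (1) gave 2 with DESeq2, at least 5 CPM, without 12 h, without 16 h and across clock times. The sex difference of the change (1) gave 0 without 4, 8 or 20 h and across clock times. Calls at single clock times (2) gave 0 without 20 h and 1 with the compared libraries alone. Relations between genes (12 of 60) gave 1 within misaligned females, 3 within control females, 3 within misaligned males and 1 within control males, and Igfals with Igfbp2 reversed to r = -0.0873 within misaligned females.

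Leaving out single libraries or replicate numbers gave 4 to 5 sex differences in misaligned and 4 to 6 in control mice. Rhythm counts ran from 0 to 2 in misaligned females, 1 to 2 in control females, 0 to 1 in misaligned males and 0 to 2 in control males. Effects by clock time in males ran from 0 to 3, rhythm changes in males from 0 to 3, their sex difference from 0 to 1, calls at single clock times from 0 to 3 and relations from 0 to 8. Mean effects, effects by clock time in females, rhythm changes in females and rhythm differences between control sexes stayed at 0. In introns, without 1 replicate number, sex differences were 2 in misaligned mice and 2 to 5 in controls. Intron rhythms in misaligned females, control females and control males, effects by clock time in males, rhythm changes in males and the sex difference of the change ran from 0 to 1. For exon 5 of Igf1, females minus males ran from -3.295 to -0.9537 points in misaligned mice and from -2.148 to -1.334 in controls, and misaligned minus control from -1.492 to 0.5703 in females and from -0.6238 to 0.9081 in males. For the second leader exon, females minus males ran from -0.1947 to 1.511 in misaligned mice and from -2.957 to 0.7356 in controls, and misaligned minus control from -1.672 to 1.444 in females and from -2.485 to -0.2331 in males.

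Residuals of misaligned and control libraries with the same sex, clock time and replicate number correlated above 0.1 in 9 of 36 pairs. The correlations ran from -0.469 to 0.4521 (median -0.0324), and in males at 8 h they were 0.2619, 0.4062 and 0.3647. Whether libraries of the same number share a batch was not tested, and the replicate block moved no other count. Groups of 3 limit each clock time, and junction reads limit Insr exon 11. The intron counts of Irs2 and Igfals are low.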
